A study of Mus musculus with 6 samples.

Results

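The genes described here were 38 genes of the lysosome, of the proton pump that acidifies it and of autophagy, out of 19938 genes measured on the arrays. They were taken by name: a gene was included where its symbol was on the list and a probe set carried that symbol and no other, and where several probe sets named a gene the one with the highest mean over the 6 arrays was used. All 38 were found, 37 of them with 1 probe set and Map1lc3b with 2. This list, the wider list of pathway genes and the marker lists below were chosen with earlier results of these data known. Their shares beside those of all genes are therefore descriptions only. They comprised 6 lysosomal membrane proteins, 7 cathepsins and other proteases, 9 glycosidases, lipid hydrolases and their activators, 5 subunits of the vacuolar ATPase (V-ATPase), 2 transcription factors of the MiT/TFE family and 9 autophagy genes.

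The study asked how the transcriptome of N2A cells, a mouse neuroblastoma line, responds to a reduced amount of Pbcas4, a noncoding RNA transcribed from a unitary pseudogene. RNA from 3 cultures carrying a short hairpin RNA (shRNA) against Pbcas4 and from 3 cultures carrying a scrambled hairpin was hybridised to Affymetrix mouse gene arrays, 1 array per culture. Both hairpins were expressed from the U6 promoter of a plasmid, delivered by transient transfection, and the cells were harvested 72 h later. No sorting of transfected cells was described, and the labels describe the 3 cultures per condition as biological replicates. No row of the probe annotation named Pbcas4, so the amount of the targeted transcript was not analysed here. In such bulk samples fewer cells of a kind and less RNA per cell cannot be told apart. Scramble replicate 1 stood apart from the other scramble arrays: over all probe sets it correlated with the shRNA arrays at r = 0.990 to 0.993 and with them at 0.987 and 0.988, a description across probe sets and not across replicates. Counts below are therefore also given without it.

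Lysosomes are acidic organelles in which proteins, glycans and lipids are broken down by hydrolases, most of which work best at low pH. The V-ATPase, a membrane complex with a cytosolic V1 part that hydrolyses ATP and a membrane-embedded V0 part that moves protons, provides that acidity. Autophagy delivers cytoplasm and organelles to the lysosome inside double-membraned vesicles, and the transcription factors Tfeb and Tfe3 activate many genes of both systems through a short palindrome in their promoters, the CLEAR element.

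The core of that element, TCACGTGA, was searched on both strands in the 300 bases around each annotated start (250 before and 50 after) in the RefSeq promoters of mouse build GRCm38.p6, because the V-ATPase and hydrolase genes on the list are known for it. A window was at hand for 33 of the 38 genes. As the list holds genes known for the motif, its share was partly set by the choice of genes. The letters TCACGTGA, which read the same on both strands, were found in 7 of the 33 (21.2%), against 6 of 96 (6.25%) of a wider list of other genes of the pathway and 1.12% of all 27025 genes with a window. The shorter CACGTG, which is contained in TCACGTGA, was found in 14 of the 33 (42.4%), against 18 of the 96 (18.8%) and 8.09% of all genes. The 9 matches to the longer motif are shown on the strand of the gene with 11 bases on either side, the motif in capitals; they are letters in a promoter, not sites at which binding was measured.
Atp6v1a, chr16:44139373-44139402, minus strand: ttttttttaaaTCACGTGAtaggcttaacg
Atp6v0d1, chr8:105566050-105566079, minus strand: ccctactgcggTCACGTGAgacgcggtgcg
Ctsd, chr7:142387908-142387937, minus strand: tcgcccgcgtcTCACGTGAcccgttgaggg
Ctsa, chr2:164833749-164833778, plus strand: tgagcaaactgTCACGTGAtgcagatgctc
Ctsa, chr2:164833766-164833795, plus strand: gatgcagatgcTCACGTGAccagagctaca
Gla, chrX:134601182-134601211, minus strand: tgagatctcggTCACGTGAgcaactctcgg
Gla, chrX:134601215-134601244, minus strand: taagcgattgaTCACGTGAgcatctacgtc
Mcoln1, chr8:3500462-3500491, plus strand: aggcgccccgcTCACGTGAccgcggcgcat
Cln3, chr7:126583340-126583369, minus strand: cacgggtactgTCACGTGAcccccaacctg

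Most of the 38 genes had a lower mean under the Pbcas4 shRNA than under the scrambled hairpin, by a small amount, and the adjusted test called none of them. Of the 38, 31 had a lower and 7 a higher mean. Differences are given as shRNA minus scramble on the log2 scale, and their median was -0.16, against 0.0031 over all 19938 genes, of which 49.0% had a lower mean. It was -0.08 without shRNA replicate 1 and -0.25 without scramble replicate 1. Among the genes furthest below the scramble arrays were Atp6v1a, the catalytic V-ATPase subunit (log2 difference -0.49, SE 0.10), Neu1, the lysosomal sialidase (-0.56, SE 0.16), and Ctsd, the aspartic protease cathepsin D (-0.45, SE 0.14).

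By limma with Benjamini-Hochberg adjustment over all probe sets, 0 of the 38 passed an adjusted p of 0.05 with a log2 difference over 0.5 in size, as did 0.0% of all genes, and the adjusted p-values of the 38 ran from 0.348 to 0.997. At an unadjusted limma p under 0.05, 7 of the 38 (18.4%) were lower, against a background of 5.46% of all genes, and 0 were higher, against 6.22%. In 9 of the 38 (23.7%) all shRNA arrays lay below all scramble arrays, against 7.63% of all genes, and in 0 all lay above, against 9.13%. With 3 arrays against 3, the exact two-sided permutation test could not go below p = 0.1, the value that each of those 9 genes reached. The count at an unadjusted p under 0.05 was 3 without shRNA replicate 3 (3.14% of all genes), 3 without scramble replicate 2 (2.88%), 4 without scramble replicate 3 (3.13%) and 13 without scramble replicate 1 (8.03%). Fewer arrays separate more easily, and the 9 non-overlapping genes became 15 without shRNA replicate 2 (12.9% of all genes) and 25 without scramble replicate 1 (19.7%), and were 4 when each array was centred on its own median (background 4.7%). A fit with estimated array weights, which did not converge and rested mostly on shRNA replicate 3 and scramble replicate 2, called 5 of the 38 at the adjusted threshold among 1320 genes in all.

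**Figure D1:**
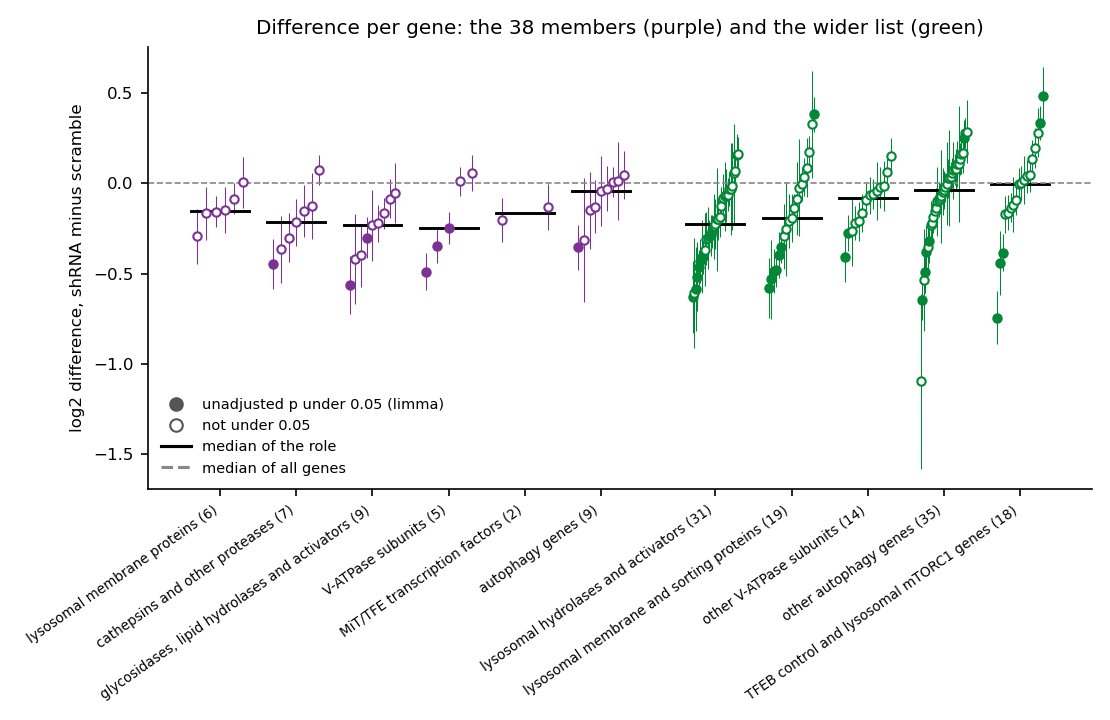
Log2 difference (shRNA mean minus scramble mean, vertical axis) of each gene with its limma standard error as a bar, by role along the horizontal axis, for the 38 genes (purple) and for 117 further genes of the pathway (green). Filled points have an unadjusted limma p under 0.05, black lines are the medians of the roles and the dashed line is the median of all genes. Of the 38 purple points 31 lie below 0, and all 7 filled ones do.

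The 5 V-ATPase genes comprised 3 whose shRNA arrays all lay below the scramble arrays and 2 whose arrays overlapped. Atp6v1a, the subunit of the V1 part that binds and hydrolyses ATP, measured 12.45, 12.28 and 12.27 under the shRNA and 12.68, 12.90 and 12.89 under the scrambled hairpin (log2 values). Every shRNA array lay below every scramble array, and the shRNA mean was 71.2% of the scramble mean on the linear scale (log2 difference -0.49, SE 0.10, limma adjusted p = 0.348). Atp6ap1, an accessory subunit that assists assembly of the pump, measured 12.75, 12.58 and 12.52 against 12.91, 13.05 and 12.92. Its conditions did not overlap either, with the shRNA mean at 78.8% of the scramble mean (log2 difference -0.34, SE 0.10, adjusted p = 0.401). Atp6v0a1, the V0 subunit a found in neurons, measured 12.60, 12.68 and 12.65 against 12.99, 12.91 and 12.77. The shRNA arrays had an SD of 0.0426 (n = 3) and lay below each scramble array, and the log2 difference was -0.25 (SE 0.09, adjusted p = 0.458).

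The remaining pair of pump genes showed no such gap. Atp6v1h, a regulatory V1 subunit, measured 11.60, 11.40 and 11.34 against 11.42, 11.43 and 11.32, with overlapping conditions and a log2 difference of 0.06 (SE 0.10). Atp6v0d1, the V0 subunit d, had means of 12.75 ± 0.0048 (SD, n = 3) and 12.74 ± 0.0784 (SD, n = 3). The mean over the 5 genes was 12.43, 12.34 and 12.30 under the shRNA and 12.56, 12.62 and 12.51 under the scrambled hairpin. V-ATPase genes were the only role among the 6 in which these array means did not overlap. In the 14 further V-ATPase subunits of the wider list the gap was very small, with array means of 10.96 to 11.0259 under the shRNA and 11.0328 to 11.20 under the scrambled hairpin. The median difference of those 14 from scramble replicate 1 was -0.07.

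Hydrolases of glycans and lipids, with their activators, had a lower mean in 9 of 9 cases (median log2 difference -0.23). Neu1, which removes sialic acid from glycoproteins and glycolipids, measured 8.83, 9.36 and 9.31 under the shRNA and 9.60, 9.84 and 9.75 under the scrambled hairpin. The groups did not overlap, the lowest array was shRNA replicate 1, and the shRNA mean was 67.6% of the scramble mean (log2 difference -0.56, SE 0.16, limma adjusted p = 0.401). Glb1, the lysosomal beta-galactosidase, measured 11.41, 11.48 and 11.29 against 11.50, 11.76 and 11.82. The gap between the nearest arrays was small, since scramble replicate 1 stood closest to the shRNA arrays, and the log2 difference was -0.30 (SE 0.11, adjusted p = 0.461).

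Gla, the alpha-galactosidase that acts on globotriaosylceramide, measured 9.90, 10.12 and 9.92 under the shRNA and 10.16, 10.33 and 10.13 under the scrambled hairpin. All shRNA arrays lay below all scramble arrays, shRNA replicate 2 only just below scramble replicate 3 (log2 difference -0.22, SE 0.10, adjusted p = 0.543). Psap, the precursor of the saposins that present sphingolipids to their hydrolases, measured 13.74, 13.70 and 13.56 against 13.77, 13.86 and 13.87. All shRNA arrays were the lower ones, by a difference of -0.17 (SE 0.09, adjusted p = 0.598). Hexa, the alpha subunit of beta-hexosaminidase, measured 11.19, 11.64 and 11.32 against 11.17, 11.59 and 11.55, and its conditions overlapped throughout (-0.05, SE 0.17).

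The other 4 of this role had overlapping arrays. Lipa, the acid lipase, had means of 9.05 ± 0.340 and 9.47 ± 0.413 (SD, n = 3 each), and Gaa, the acid alpha-glucosidase that degrades glycogen, 12.32 ± 0.106 and 12.72 ± 0.330. Their log2 differences of -0.42 and -0.40 were as large as those of several genes above, but the spread among the scramble arrays was wider. Npc2, which hands cholesterol to the membrane protein Npc1, differed by -0.23 (SE 0.20), and Gusb, the beta-glucuronidase, by -0.08 (SE 0.11).

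**Figure D2:**
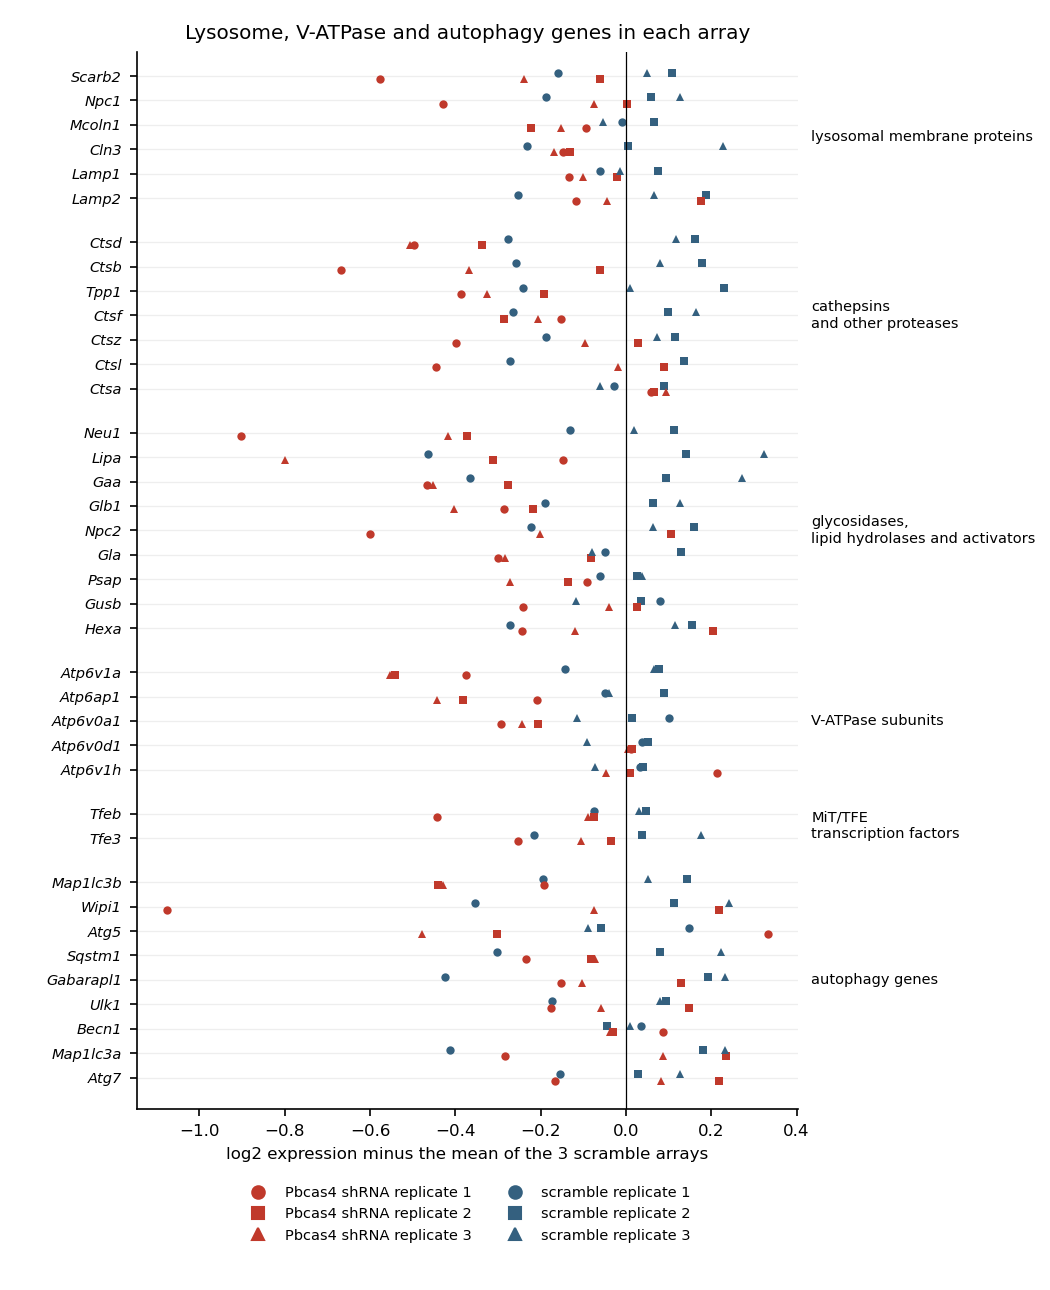
Log2 value of each of the 38 genes (vertical axis, by role) on each of the 6 arrays, drawn as the distance from the gene's mean over the 3 scramble arrays (horizontal axis), with red for shRNA and blue for scramble arrays and a symbol for each replicate number. In Atp6v1a, Atp6ap1, Atp6v0a1, Neu1, Ctsd, Glb1, Gla, Psap and Mcoln1 every red point lies left of every blue point.

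Among the proteases 6 of 7 had a lower mean (median log2 difference -0.22). Ctsd, a major aspartic protease of the lysosome, measured 12.83, 12.99 and 12.82 under the shRNA and 13.05, 13.49 and 13.45 under the scrambled hairpin. Scramble replicate 1 lay nearest to the shRNA arrays but above all of them, and the shRNA mean was 73.3% of the scramble mean (log2 difference -0.45, SE 0.14, limma adjusted p = 0.421). Ctsa, the serine carboxypeptidase that also protects Neu1 and beta-galactosidase in a complex, was the exception, at 12.78, 12.79 and 12.82 against 12.70, 12.81 and 12.67. Its log2 difference was 0.07 (SE 0.08) and the conditions overlapped, scramble replicate 2 lying within the shRNA arrays.

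The cysteine proteases and Tpp1 lay between these values. Ctsb had means of 12.46 ± 0.304 and 12.82 ± 0.228 (SD, n = 3 each), a log2 difference of -0.37, and Tpp1, a tripeptidyl peptidase lost in a childhood neuronal ceroid lipofuscinosis, differed by -0.30 (SE 0.14). Smaller differences were seen in Ctsf (-0.22, SE 0.13), Ctsz (-0.15, SE 0.14) and Ctsl (-0.13, SE 0.18). In all 5 the arrays of both conditions overlapped.

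Lysosomal membrane proteins had a lower mean in 5 of 6 cases, with a median log2 difference of -0.15. Mcoln1, the calcium release channel of the lysosome, measured 12.78, 12.65 and 12.72 under the shRNA and 12.86, 12.93 and 12.81 under the scrambled hairpin. This was the only gene of the 6 whose conditions did not overlap, by a small margin (-0.16, SE 0.08, limma adjusted p = 0.603). Scarb2, the receptor that carries beta-glucocerebrosidase to the lysosome, measured 11.02, 11.53 and 11.35 against 11.43, 11.70 and 11.64, with shRNA replicate 2 above scramble replicate 1 (-0.29, SE 0.15, adjusted p = 0.591). Lamp2, an abundant glycoprotein of the limiting membrane that also serves chaperone-mediated autophagy, measured 11.98, 12.27 and 12.05 against 11.84, 12.28 and 12.16 and had nearly equal means in both conditions (0.0047, SE 0.14). The related Lamp1 differed by -0.09 (SE 0.08), the cholesterol exporter Npc1 by -0.17 (SE 0.15) and Cln3, a membrane protein mutated in juvenile neuronal ceroid lipofuscinosis, by -0.15 (SE 0.13).

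Tfeb and Tfe3, the transcription factors of the list, had lower means without separated arrays. Tfeb measured 9.36, 9.73 and 9.71 under the shRNA and 9.73, 9.85 and 9.83 under the scrambled hairpin (log2 difference -0.20, SE 0.12, limma adjusted p = 0.658). The difference was carried mostly by shRNA replicate 1, the other two shRNA arrays lying close to scramble replicate 1. Tfe3 measured 10.94, 11.16 and 11.08 against 10.98, 11.23 and 11.37, a log2 difference of -0.13 (SE 0.13, adjusted p = 0.832). The activity of these factors depends on their phosphorylation and place in the cell, which arrays do not measure. By the motif in the window, the median log2 difference was -0.16 over the 7 genes with the motif (from -0.49 for Atp6v1a to 0.07 for Ctsa) and -0.18 over the 26 without it. The mean was lower in 5 of the 7 and 24 of the 26. The arrays were separated downwards in 4 of the 7 and 5 of the 26, against 7.63% of all genes. The 7 and the 26 genes were not tested against each other.

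The 9 autophagy genes had a median log2 difference of -0.04, with 6 lower and 3 higher in mean. In none of them were the arrays separated, against 7.63% of all genes downwards and 9.13% upwards. Among only 9 genes that count is near those shares. Map1lc3b, the LC3 protein that is attached to the lipid of the autophagosome membrane, measured 12.80, 12.55 and 12.57 under the shRNA and 12.80, 13.14 and 13.05 under the scrambled hairpin. Replicate 1 had nearly the same value in both conditions, and the other 4 arrays were apart (log2 difference -0.35, SE 0.12, limma adjusted p = 0.437, with -0.30 at its other probe set). Atg7, the enzyme that activates LC3 for this attachment, measured 9.89, 10.27 and 10.14 against 9.90, 10.08 and 10.18 and overlapped fully (0.05, SE 0.13). Wipi1, which binds phosphoinositide on the forming membrane, had the widest SD of the 38 genes under the shRNA, its mean of 11.73 ± 0.679 (SD, n = 3) resting on 1 array at 10.96, against 12.04 ± 0.313 (SD, n = 3).

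The other 6 autophagy genes differed by less than 0.16 in size. Atg5, part of the conjugation complex that acts with LC3, differed by -0.15 (SE 0.21) and the cargo receptor Sqstm1 (p62) by -0.13 (SE 0.15). The LC3 relatives Gabarapl1 and Map1lc3a (-0.04, SE 0.19 and 0.01, SE 0.21) and the initiating factors Ulk1 and Becn1 (-0.03, SE 0.12 and 0.0063, SE 0.08) had nearly equal means.

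**Figure D3:**
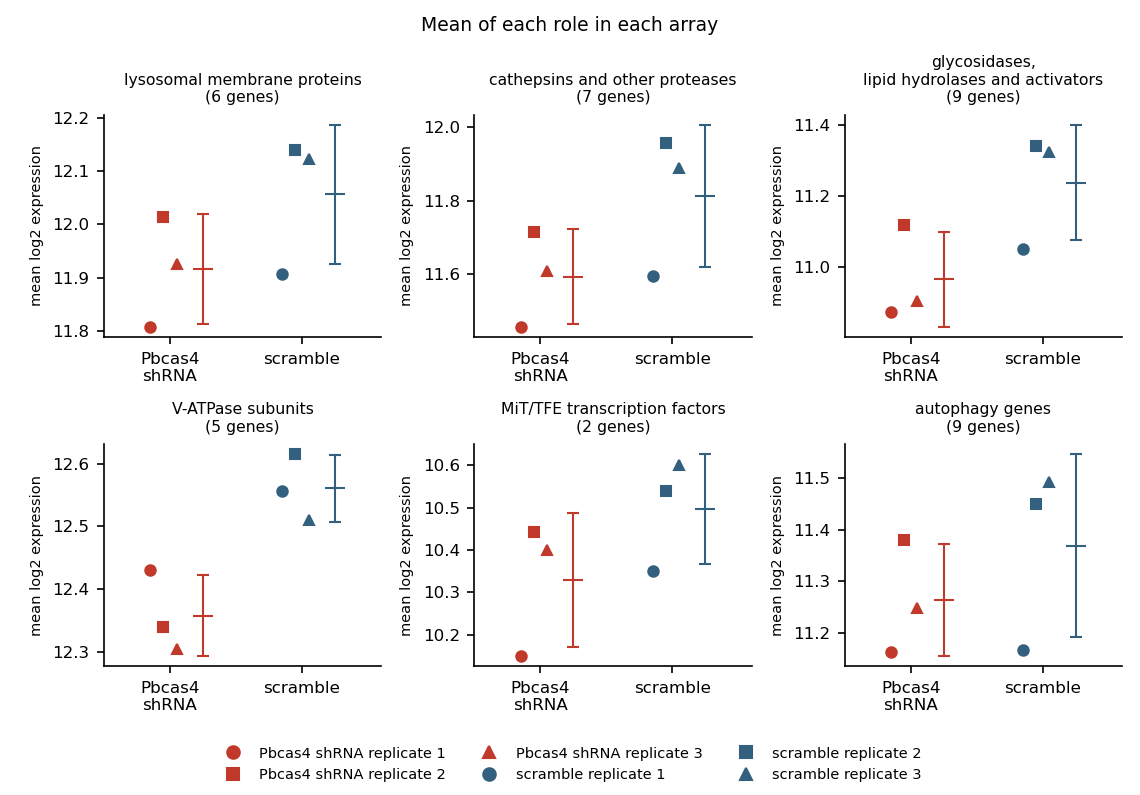
Mean log2 value of the genes of each role on each of the 6 arrays, 1 panel per role (vertical axis, log2), with the mean and SD over the 3 arrays of each condition as bars. The V-ATPase panel is the only one in which all shRNA arrays (12.30 to 12.43) lie below all scramble arrays (12.51 to 12.62).

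Same-numbered arrays of the 2 conditions were also compared pair by pair, although the labels do not say what the number marks. Their deviations from the condition means correlated weakly over all probe sets (0.291, 0.137 and 0.103). For shRNA replicate 2 the correlation was higher with scramble replicate 3 (0.199). In pair 1, 25 of the 38 genes were lower in the shRNA array, in pair 2, 32, and in pair 3, 34, with median differences of -0.08, -0.13 and -0.27. All 3 pairs were lower in 20 genes, against 18.0% of all genes, and all 3 were higher in 0, against 19.4%. Lysosomal and V-ATPase genes gave 18 of those 20 and the MiT/TFE factors the remaining 2. In 0 of the 9 autophagy genes were all 3 pairs lower, and 9 genes are too few to set this apart from 18.0%. With the replicate number as a block in limma, 8 of the 38 had a lower value at an unadjusted p under 0.05, against 7.35% of all genes in that fit, and 0 passed the adjusted threshold. In that fit Glb1, Atp6v0a1 and Map1lc3b no longer passed the unadjusted threshold (limma adjusted p = 0.394, 0.417 and 0.406), and Scarb2, Ctsb, Tpp1 and Gaa did.

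The arrays numbered 1 stood apart in these genes. Over the 38 genes the array means were 11.36, 11.56 and 11.44 under the shRNA and 11.47, 11.73 and 11.71 under the scrambled hairpin, so that the mean of scramble replicate 1 lay among the shRNA arrays. Replicate 1 was the lowest of its condition in 24 of the 38 genes under the shRNA and in 29 under the scrambled hairpin, against 34.2% and 46.5% of all genes. The mean of the shRNA arrays lay below scramble replicate 1 in 21 of the 38 genes, with a median log2 difference of -0.03, and below the mean of scramble replicates 2 and 3 in 34, with a median of -0.25. Over all genes these medians were 0.03 and -0.02.

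By role the difference from scramble replicate 1 was -0.29 for the V-ATPase genes and -0.11 for the glycosidases and lipid hydrolases. For the membrane proteins it was -0.0019, for the MiT/TFE factors -0.02, for the proteases 0.03 and for the autophagy genes 0.15 (medians). Against scramble replicates 2 and 3 all 6 roles had negative medians, from -0.35 for the proteases to -0.19 for the autophagy genes, with -0.20 for the V-ATPase genes.

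A list of 19 genes of mitosis and S phase, measured for the growth state of the cultures, moved with this split. Its array means were 12.33, 12.12 and 12.12 under the shRNA and 12.19, 11.33 and 10.83 under the scrambled hairpin, and all 19 had a higher mean under the shRNA (median log2 difference 0.77). Scramble replicate 1, which was among the shRNA arrays in the mean of the 38 genes, was among them in this list as well. In the mean of the 5 V-ATPase genes scramble replicate 1 stood at 12.56, above all shRNA arrays, while in Atp6v1h alone it lay among them at 11.42. The part of the growth state in the lysosomal values was not tested.

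**Figure D4:**
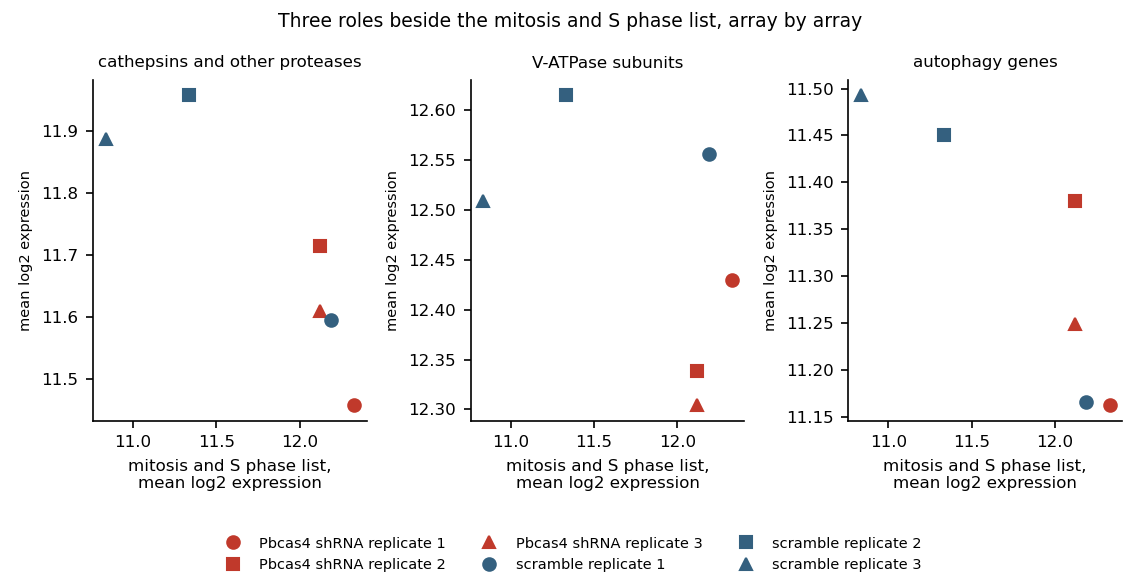
Array means (log2, vertical axes) of the proteases, of the V-ATPase genes and of the autophagy genes against the array mean of 19 mitosis and S phase genes, 1 point per array. Scramble replicate 1 lies at 12.19 on the horizontal axis, among the shRNA arrays at 12.12 to 12.33, and in the V-ATPase panel it lies above them at 12.56.

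Markers of cell type were read beside these values. Of 14 measured markers of the neuroblastoma line 13 passed the filter on dim probe sets, the exception being the neurofilament gene Nefl, and the list had means of 10.98, 10.87 and 10.82 under the shRNA and 11.29, 11.44 and 11.21 under the scrambled hairpin (median log2 difference -0.22). Of the 14, 12 had a lower mean, against 49.0% of all genes. At an unadjusted limma p under 0.05, 5 (35.7%) were lower, against 5.46% of all genes. The arrays were separated downwards in 4 (28.6%), against 7.63% of all genes. The log2 differences of Chgb, a granin (-1.01), and of the catecholamine enzymes Th (-1.08) and Dbh (-1.34) were larger in size than any among the 38 genes, and their part in the lysosomal values was not tested. The lysosome-rich macrophages and microglia were represented by 13 genes, of which 5 did not pass that filter (Itgam, Ptprc, Emr1, Lyz2 and Cd14). This list had array means of 6.72 to 6.83 in the shRNA and 6.75 to 6.80 in the scramble arrays, a median log2 difference of 0.02 and 0 genes at an unadjusted limma p under 0.05. The medians of 7 glial and 6 epithelial markers were -0.0047 and 0.02. The mean of 9 fibroblast markers ran from 7.53 to 7.65 under the shRNA and from 7.24 to 7.73 under the scrambled hairpin, with 3 lower and 6 higher in mean. Of the 9, 1 was separated upwards, against 9.13% of all genes: Pdgfra (0.55, SE 0.14, limma adjusted p = 0.371). Pdgfrb differed by -0.57 (SE 0.64) with overlapping arrays.

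Beyond the 38 genes, 117 of 126 other genes of the pathway were measured, and 82 of them had a lower mean (median log2 difference -0.09). As this list too was chosen with earlier results known, its shares are no independent check on the 38. At an unadjusted limma p under 0.05, 24 (20.5%) were lower and 5 higher, against 5.46% and 6.22% of all genes, and the arrays were separated downwards in 28 (23.9%) and upwards in 9, against 7.63% and 9.13% of all genes. The count of 24 was 32 without scramble replicate 1 (8.03% of all genes in that fit), 12 without scramble replicate 2 (2.88%), 13 without shRNA replicate 3 (3.14%), 13 without scramble replicate 3 (3.13%) and 15 when each array was centred on its own median (3.68%). None passed the adjusted threshold. By role, 27 of 31 hydrolases and activators, 14 of 19 membrane and sorting proteins and 12 of 14 further V-ATPase subunits had a lower mean (medians -0.22, -0.19 and -0.08). The corresponding counts were 20 of 35 for further autophagy genes and 9 of 18 for genes of Tfeb control and of the growth-regulating kinase complex mTORC1 at the lysosome (medians -0.04 and -0.0013).

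Named from these were, in each role, at most 4 genes with the smallest p, and in all of them the arrays did not overlap. Bnip3 and Rragd, whose arrays overlapped, are added further below for comparison. Acp2, the lysosomal acid phosphatase, measured 9.66, 9.81 and 9.73 under the shRNA and 10.09, 10.18 and 10.31 under the scrambled hairpin (log2 difference -0.46, SE 0.10, limma adjusted p = 0.348). The sphingolipid hydrolases Smpd1 and Asah1 differed by -0.41 (SE 0.09) and -0.43 (SE 0.12), and Sgsh, a sulfatase of heparan sulfate, by -0.29 (SE 0.09). Laptm4b, a membrane protein of late endosomes and lysosomes, measured 11.98, 12.18 and 12.06 against 12.48, 12.61 and 12.56 (-0.48, SE 0.09, adjusted p = 0.344). Mfsd8, another ceroid lipofuscinosis protein, differed by -0.48 (SE 0.12) and Hgsnat, the acetyltransferase of heparan sulfate degradation, by -0.35 (SE 0.09). Nagpa, which uncovers the mannose 6-phosphate signal that sends hydrolases to the lysosome, was on the other side, at 10.30, 10.12 and 10.09 against 9.88, 9.72 and 9.77 (0.38, SE 0.10, adjusted p = 0.379). Of the further pump subunits 2 passed the unadjusted threshold, Atp6v1f (-0.41, SE 0.14) and Atp6v0e2 (-0.28, SE 0.10).

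Although the autophagy genes of the first list had a median near 0, Ulk2, the relative of Ulk1 in the initiating kinase complex, measured 9.25, 9.47 and 9.26 under the shRNA and 9.82, 10.08 and 10.01 under the scrambled hairpin. The shRNA mean was 64.0% of the scramble mean (log2 difference -0.64, SE 0.11, limma adjusted p = 0.340), while Ulk1 itself differed by -0.03 (SE 0.12). Atg9a, the lipid scramblase of the forming autophagosome, differed by -0.49 (SE 0.11) and Atg13, a partner of the Ulk kinases, by -0.32 (SE 0.12), and Wdr45b, a relative of Wipi1, by 0.28 (SE 0.08).

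The Rag GTPases bring mTORC1 to the lysosome when amino acids are present. Of the wider list at an unadjusted limma p under 0.05, the GTPase Rraga had the log2 difference largest in size. Bnip3 of that list differed by more (-1.10, SE 0.48), with an unadjusted limma p of 0.0595. Rraga measured 10.13, 10.19 and 10.14 under the shRNA and 10.58, 11.09 and 11.03 under the scrambled hairpin, with the shRNA mean at 59.7% of the scramble mean (-0.74, SE 0.15, limma adjusted p = 0.348). The shRNA arrays had an SD of 0.0334 (n = 3), and scramble replicate 1 was again the nearest scramble array. Rragc, its partner, differed by -0.38 (SE 0.10), but the related Rragd by 0.02 (SE 0.13), with overlapping arrays. Fnip1 and Fnip2, which act with folliculin on these GTPases, lay on the other side with 0.33 (SE 0.10) and 0.48 (SE 0.16).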

How the data were processed

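N2A cells were profiled on 6 Affymetrix Mouse Gene 1.0 ST arrays, 3 per condition. The deposited values were log2 expression values of 35556 probe sets, normalised by the authors before deposit with a method not given in the sources used here. The values were used as deposited, and probe sets were named from the platform annotation: 21789 carried a single symbol, for 19938 genes. The linear models and moderated statistics of limma (version 3.58.1, under R 4.3.3) gave two-sided p-values, adjusted by Benjamini-Hochberg over all 35556 probe sets, and a call needed an adjusted p under 0.05 and a log2 difference over 0.5 in size. The methods name limma, this adjusted p and a minimum of 0.5 for the variance between conditions, which was read here as a log2 difference. With the adjusted p alone no gene passed either, the lowest limma adjusted p over all probe sets being 0.297. The paper reports differentially expressed genes from these arrays by limma at that threshold, and the disagreement was not resolved here. The fit was first run on simulated arrays with independent normal noise. That run checked the code, and its recovery of differences as small as those reported here is not given. Tables and plots were made with Python 3.11.15, pandas 2.3.3 and matplotlib 3.10.9.

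The genes, the wider list and the marker lists were chosen with earlier results of these data known. All 6 array values were given for genes that did not overlap or had an unadjusted p under 0.05 and for the lowest and highest difference of each role, and for the wider list at most the 4 smallest p-values under 0.05 per role were named. Bnip3 and Rragd of the wider list were added for comparison. Of the 126 genes on the wider list 9 were not matched to a single-symbol probe set. Same-numbered arrays correlated in their deviations from the condition means at 0.291, 0.137 and 0.103, and the arrays were treated as numbered pairs in 1 alternative, although shRNA replicate 2 correlated more with scramble replicate 3 (0.199). Alternatives were the replicate block, array weights, centring on the array median, quantile normalisation, trended and robust variance, leaving out probe sets whose mean was under the 25th percentile, the mean of a gene's probe sets, leaving out each array and leaving out both arrays numbered 1. The number of arrays limits the precision.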

Additional observations from a re-analysis of the deposited data

How the results depend on the processing

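The median of the 38 genes stayed negative in every alternative run, from -0.25 (without scramble replicate 1) to -0.08 (without shRNA replicate 1) when single arrays were left out. Leaving out single arrays gave 3 to 13 genes lower at an unadjusted p under 0.05 (2.88% to 8.03% of all genes) and 0 higher (2.44% to 11.4%). It gave 9 to 25 non-overlapping lower (9.58% to 19.7% of all genes) and 0 to 1 higher (11.4% to 20.3%), which was Ctsa without scramble replicate 2. In these fits 0 passed the adjusted threshold. In the wider list 12 to 32 were lower and 3 to 6 higher at that p, against the same shares of all genes. Without both arrays numbered 1, 11 of the 38 were lower at that p (background 8.94%) and 26 did not overlap (29.2%). Centring on array medians left 4 non-overlapping genes (Mcoln1, Neu1, Atp6v1a and Atp6ap1; background 4.7%), 5 lower at that p and 15 in the wider list, and moved the background from 5.46% lower and 6.22% higher to 3.68% and 7.69%. Estimation of array weights did not converge and gave shRNA replicate 3 a weight of 5.32. With these weights 5 of the 38 passed the adjusted threshold (Ctsd, Gaa, Neu1, Lipa and Atp6v1a), among 1320 genes in all. At the unadjusted p 19 of the 38 were lower, and in the wider list 51 were lower and 10 higher, against 15.1% and 17.5% of all genes. In the paired fit with a replicate block 8 of the 38 and 29 of the wider list were lower at that p, against 7.35% of all genes. Neu1, Atp6v1a and Atp6ap1 kept an unadjusted p under 0.05 in all 14 alternatives, and none of the 10 genes of the 38 with separated arrays or an unadjusted p under 0.05 changed direction in any of them.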
